A study of Mus musculus with 8 samples.

Results

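Genes of the unfolded protein response and chaperones of the endoplasmic reticulum were examined in the epididymal fat of mice with and without the succinate receptor gene *Sucnr1*. The 10 genes were taken from a list, chosen with earlier results of these data known. They are *Atf6*, *Xbp1*, *Ddit3*, *Hspa5*, *Hsp90b1*, *Hyou1*, *Dnajb9*, *Calr*, *Pdia4* and *Derl3*. Of these, 8 had a probe set that the annotation gives to them alone, among 18820 genes measured in this way. *Ddit3* and *Pdia4* lie only on probe sets shared with another gene (*Mars1* and *Mir704*, respectively), whose signal cannot be assigned to 1 of them, and they are not analysed here. Fat of the epididymal pad came from male mice on a low-fat diet (LFD), 4 WT and 4 *Sucnr1*-/-, with 1 Affymetrix whole-transcript array per replicate. The labels number the replicates without identifying animals, so each was taken as 1 mouse and p-values measure the spread between these samples. Both groups descended from heterozygous intercrosses on the C57BL/6 background. *Sucnr1*-/- mice carry a lacZ/neo cassette in place of much of the receptor's coding sequence in every cell, so the loss is not limited to one cell type. The labels give 16 weeks of diet from an age of 8 to 10 weeks, and 24 to 26 weeks at death.

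The endoplasmic reticulum (ER) folds proteins that are secreted or placed in membranes. When unfolded proteins build up there, the sensors IRE1 (*Ern1*), PERK (*Eif2ak3*) and ATF6 raise the production of chaperones and of factors that remove misfolded proteins. In fat the pathway serves the secretion of adipokines by adipocytes, and antibody-secreting plasma cells are known for a high level of it. The values are log2 expression, so a difference of 1 stands for a doubling, and each is given as *Sucnr1*-/- minus WT.

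The best known DNA element of this response is the ER stress response element (ERSE), at which NF-Y and ATF6 or XBP1 bind. Its letters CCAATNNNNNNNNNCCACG were looked for on both strands of the RefSeq promoters of the mouse build GRCm38.p6, from 250 bases before to 50 after a gene's start. The element was in 39 of 32851 promoters (0.119%). Of the 10 listed genes 8 had a promoter in that table, *Atf6* and *Hyou1* being the exceptions, and 4 of these 8 held the element. All 4 were measured on the arrays, and their promoters are shown because they share the element that this response acts on. Capitals mark the ERSE on either strand, the rest being in lower case. *Hspa5* lies at chr2:34771840-34772139 on the plus strand, *Hsp90b1* at chr10:86705395-86705694 on the minus strand, *Calr* at chr8:84846882-84847181 on the minus strand and *Derl3* at chr10:75893148-75893447 on the plus strand.
Hspa5: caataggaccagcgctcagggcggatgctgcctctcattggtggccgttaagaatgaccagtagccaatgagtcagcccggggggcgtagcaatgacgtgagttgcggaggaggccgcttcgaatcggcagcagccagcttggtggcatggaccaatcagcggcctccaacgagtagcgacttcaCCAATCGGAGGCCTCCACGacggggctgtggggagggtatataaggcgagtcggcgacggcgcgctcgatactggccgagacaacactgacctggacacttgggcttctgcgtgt
Hsp90b1: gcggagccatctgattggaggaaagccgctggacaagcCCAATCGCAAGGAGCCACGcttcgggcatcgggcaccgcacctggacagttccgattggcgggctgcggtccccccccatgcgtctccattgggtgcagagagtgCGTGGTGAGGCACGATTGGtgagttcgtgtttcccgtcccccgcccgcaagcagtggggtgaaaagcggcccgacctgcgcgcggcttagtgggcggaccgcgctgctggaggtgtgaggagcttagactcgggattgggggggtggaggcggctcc
Calr: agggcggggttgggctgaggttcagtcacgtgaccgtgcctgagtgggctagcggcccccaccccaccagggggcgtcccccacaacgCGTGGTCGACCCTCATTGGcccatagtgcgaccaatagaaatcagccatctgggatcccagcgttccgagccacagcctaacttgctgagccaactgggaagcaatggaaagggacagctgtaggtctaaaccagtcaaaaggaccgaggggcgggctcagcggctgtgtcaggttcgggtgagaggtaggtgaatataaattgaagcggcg
Derl3: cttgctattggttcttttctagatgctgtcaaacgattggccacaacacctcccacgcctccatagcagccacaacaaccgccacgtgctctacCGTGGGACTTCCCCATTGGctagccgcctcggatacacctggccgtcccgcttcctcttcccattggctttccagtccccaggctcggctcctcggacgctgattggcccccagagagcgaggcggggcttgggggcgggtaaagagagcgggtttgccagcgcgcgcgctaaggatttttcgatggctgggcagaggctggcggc

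The element began at base -65 from the start of *Hspa5*, at -162 in *Calr* and at -156 in *Derl3*, and *Hsp90b1* held 2 of them, at -212 and -107. It was read on the gene's own strand in *Hspa5* and on the opposite strand in *Calr* and *Derl3*, while *Hsp90b1* had 1 on each. The promoters of *Xbp1*, *Dnajb9*, *Ddit3* and *Pdia4* did not hold these letters within the window. Its outer parts alone were common, with CCAAT in 37.4% and CCACG in 32.8% of all promoters, and each ERSE holds both. Other elements of the response were also looked for on both strands. The ERSE-II (ATTGGNCCACG, in 0.0365% of promoters), the UPRE (TGACGTGG, 0.676%) and the C/EBP-ATF element TGATGNAAN (3.95%) were in none of the 8 promoters. These matches describe the letters only.

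The array values were of like distribution in all mice, with medians between 6.28 and 6.36 over the 35556 probe sets. *Sucnr1* was at 8.68, 8.97, 9.38 and 9.78 in WT and at 6.02, 6.05, 5.41 and 7.11 in *Sucnr1*-/- replicates 1 to 4, so every library matched its label. Adipocyte markers, as the tissue label requires, had a mean log2 level of 12.62 to 12.89 in WT and 12.83 to 12.89 in *Sucnr1*-/- mice. Limma, which fits each gene and shares the spread between genes, passed 0 of 18820 genes (0%) at a Benjamini-Hochberg adjusted p under 0.05. The deleted gene *Sucnr1* itself did not pass, at -3.05 (limma unadjusted p = 1.71e-05, adjusted p = 0.321). A gene that does not pass this test is therefore not shown to be unchanged. Unadjusted, 632 genes (3.36%) were lower and 652 (3.46%) higher in *Sucnr1*-/- mice at p under 0.05, or 330 and 1352 when the arrays were set to a common median, and 465 and 838 when quantiles were equalised.

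All 8 measured genes had a lower mean in *Sucnr1*-/- mice, as did 46.8% of all genes, and none of them passed the test over all genes (limma, adjusted p from 0.712 to 0.792). Their median log2 difference was -0.21, where that of all genes was 0.01. At an unadjusted p under 0.05, 4 of the 8 were lower (*Derl3*, *Atf6*, *Hyou1* and *Calr*) and none was higher, against 3.36% and 3.46% of all genes. With the dimmest 40% of genes left out, 535 of 11292 genes were lower and 369 higher. In 3 of the 8 (*Derl3*, *Atf6* and *Calr*) every *Sucnr1*-/- mouse lay below every WT mouse, which was so in 1.87% of all genes. Because the genes were chosen with earlier results of these data known, these shares describe the list and are no test of it. The count of 4 went to 2 when WT replicate 1, WT replicate 2, *Sucnr1*-/- replicate 3 or *Sucnr1*-/- replicate 4 was left out, and to 2 when arrays were set to a common median. With that centring the median of the 8 genes was -0.17 and that of all genes 0.05. Fewer cells of a type that expresses these genes and less RNA per cell cannot be told apart in whole tissue.

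**Figure D1:**
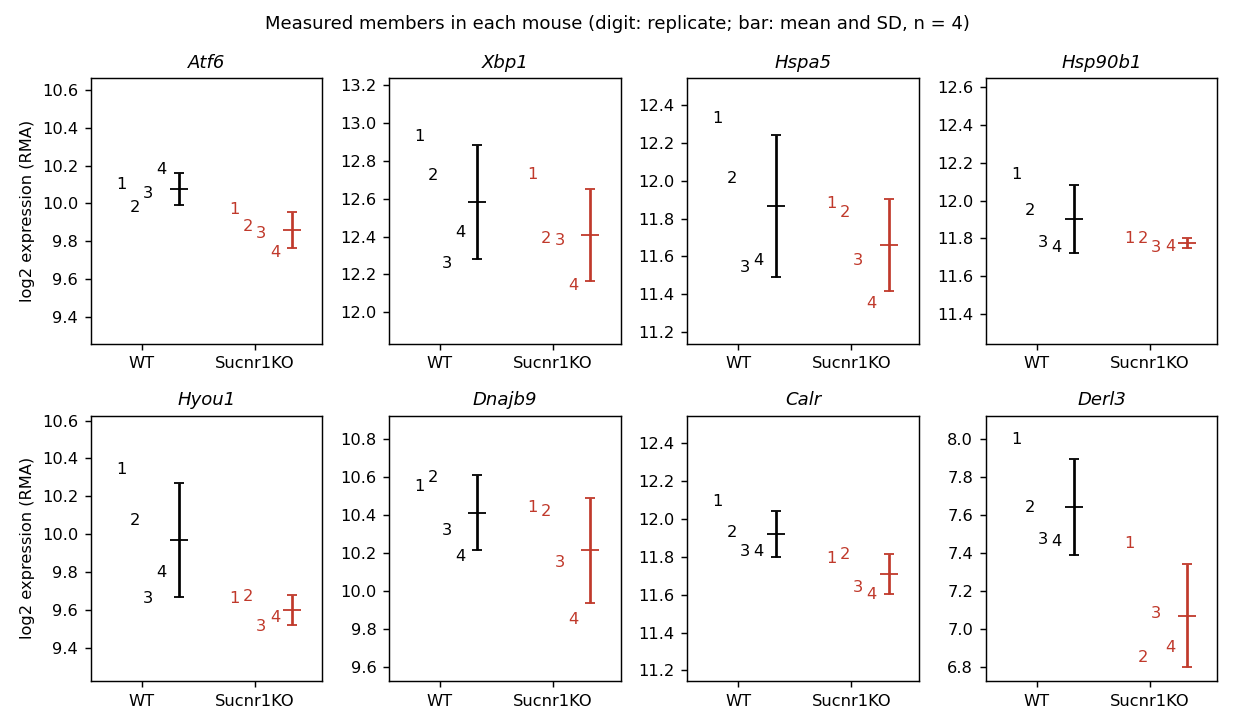
Log2 expression (RMA, vertical axis, with the same span of log2 units in every panel) of the 8 measured genes in each mouse, WT in black and *Sucnr1*-/- (Sucnr1KO) in red, the digit being the replicate, with the mean and SD (n = 4) beside each group. The groups do not overlap for *Atf6*, *Calr* and *Derl3*, and WT replicate 1 is the highest mouse for 6 of the 8 genes.

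Among the sensors and transcription factors, *Atf6* had a lower level in each *Sucnr1*-/- mouse, by a narrow margin. ATF6 is held in the ER membrane and, once cut in the Golgi, enters the nucleus to switch on chaperone genes. The log2 level of *Atf6* was 10.10, 9.98, 10.05 and 10.18 in WT replicates 1 to 4 and 9.97, 9.88, 9.84 and 9.74 in *Sucnr1*-/- replicates 1 to 4. The lowest WT mouse and the highest *Sucnr1*-/- mouse were only 0.014 apart. The means were 10.08 ± 0.08 (SD, n = 4) and 9.86 ± 0.09 (SD, n = 4), with p = 0.0286 in a two-sided exact permutation test, below which a design of 4 against 4 cannot go. The difference was -0.22 (SE 0.07, 95% interval -0.38 to -0.06, limma unadjusted p = 0.0139, adjusted p = 0.712). *Xbp1* encodes the factor that IRE1 activates by splicing its mRNA, and 1 value per gene does not separate the spliced form. Its log2 level was 12.93, 12.72, 12.26 and 12.42 in WT and 12.73, 12.39, 12.38 and 12.14 in *Sucnr1*-/- mice. WT replicate 1 was the highest, *Sucnr1*-/- replicate 1 was second, and the groups overlapped. The difference of *Xbp1* was -0.18 (SE 0.17, 95% interval -0.56 to 0.21, limma adjusted p = 0.792), and leaving out single mice moved it between -0.28 (without WT replicate 3) and -0.06 (without WT replicate 1).

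Of the 9 other sensors and transducers measured, 8 had a lower mean and 1 a higher one, with a median of -0.11, and 0 passed at an adjusted p under 0.05 (limma; 1 lower unadjusted). The 8 include *Ern2* at -0.03 (SE 0.08), a dim gene at 4.63 to 4.94 over all mice. They also include *Eif2a* at -0.06 (SE 0.06), which is not the gene of the PERK target. That gene, *Eif2s1*, was not measured. *Creb3l1*, a membrane-bound factor of the ATF6 type that drives genes of secretion, differed by -0.64 (SE 0.24, unadjusted p = 0.0264). Its log2 level was 9.88, 9.46, 9.28 and 9.13 in WT and 9.42, 8.64, 8.81 and 8.32 in *Sucnr1*-/- mice, where only replicate 1 reached the WT range. Its relative *Creb3l2* was at -0.18 (SE 0.09) and *Eif2ak3*, which encodes PERK, at -0.12 (SE 0.06). Neither passed unadjusted. *Ern1*, which encodes IRE1, was at -0.25 (SE 0.13) and *Atf4*, the factor translated when PERK is active, at -0.09 (SE 0.19). These last 2 genes are named for their place in the pathway and were chosen after their values were seen.

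Targets of the integrated stress response, the branch that runs through PERK and ATF4, had no common direction. Of 15 measured, 6 had a lower and 9 a higher mean, with a median of 0.07. None passed at an adjusted p under 0.05 (limma), and 1 was higher unadjusted. This was *Sesn2*, a stress-induced regulator of growth signalling, with 0.45 (SE 0.17, unadjusted p = 0.0254). *Sesn2* was at 9.03, 9.51, 9.56 and 9.21 in WT and at 9.78, 10.18, 9.69 and 9.48 in *Sucnr1*-/- mice, with *Sucnr1*-/- replicate 4 within the WT range. *Eif4ebp1*, which restrains the start of translation, was higher in each *Sucnr1*-/- mouse (12.27 to 12.40) than in each WT mouse (12.12 to 12.26), as were 2.37% of all genes. Its difference was 0.11 (SE 0.06) and did not pass unadjusted. *Bbc3*, a promoter of cell death, was at 0.14 (SE 0.08). A test of the chaperones against these targets was not made.

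The chaperones that lead the response had lower means in *Sucnr1*-/- mice by 0.13 to 0.36 log2 units, and only the difference of *Calr* came without overlap. *Hspa5* encodes BiP, the main Hsp70 chaperone of the ER, which also keeps the sensors inactive. The log2 level of *Hspa5* was 12.33, 12.01, 11.54 and 11.58 in WT and 11.88, 11.83, 11.58 and 11.35 in *Sucnr1*-/- replicates 1 to 4. WT replicates 1 and 2 were high and WT replicates 3 and 4 lay among the *Sucnr1*-/- mice. Its means were 11.86 ± 0.38 (SD, n = 4) and 11.66 ± 0.24 (SD, n = 4). The difference was -0.20 (SE 0.19, 95% interval -0.64 to 0.23, limma adjusted p = 0.792), and it went to -0.05 without WT replicate 1, to -0.10 without *Sucnr1*-/- replicate 4 and to -0.31 without WT replicate 3. *Hsp90b1* encodes GRP94, the Hsp90 of the ER. It was at 12.14, 11.95, 11.78 and 11.75 in WT and at 11.80, 11.80, 11.75 and 11.76 in *Sucnr1*-/- mice, a difference of -0.13 (SE 0.09, 95% interval -0.34 to 0.08). The SD of *Hsp90b1* was 0.18 in WT and 0.03 in *Sucnr1*-/- mice (n = 4 each), and without WT replicate 1 the difference was -0.05.

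*Hyou1*, a large Hsp70-like chaperone that exchanges the nucleotide of BiP, and *Dnajb9*, a J-domain partner of BiP, were also lower in their means. The log2 level of *Hyou1* was 10.34, 10.07, 9.66 and 9.80 in WT and 9.66, 9.67, 9.51 and 9.56 in *Sucnr1*-/- mice. WT replicate 3 lay 0.013 below the highest *Sucnr1*-/- mouse, so the groups just overlapped (exact permutation p = 0.0857). Its difference was -0.36 (SE 0.14, 95% interval -0.68 to -0.05, limma unadjusted p = 0.0283, adjusted p = 0.712), and -0.24 without WT replicate 1. *Dnajb9* was at 10.55, 10.60, 10.32 and 10.18 in WT and at 10.44, 10.42, 10.15 and 9.85 in *Sucnr1*-/- mice. Replicates 1 and 2 were the higher ones in both groups, and the groups overlapped. The difference of *Dnajb9* was -0.20 (SE 0.15, 95% interval -0.54 to 0.14, limma adjusted p = 0.761), and -0.08 without *Sucnr1*-/- replicate 4. *Calr* encodes calreticulin, which binds calcium and folds glycoproteins. Its log2 level was 12.09, 11.93, 11.83 and 11.83 in WT and 11.79, 11.81, 11.64 and 11.60 in *Sucnr1*-/- mice, without overlap and with 0.021 between the nearest mice. The difference of *Calr* was -0.21 (SE 0.08, 95% interval -0.40 to -0.02, limma unadjusted p = 0.0323, adjusted p = 0.712; exact permutation p = 0.0286).

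Of 16 other ER chaperones and co-chaperones measured, 14 had a lower mean and 2 a higher one, with a median of -0.12. None passed at an adjusted p under 0.05 (limma), and 2 were lower unadjusted. *Sdf2l1*, which works with BiP and its J-domain partners, differed by -0.61 (SE 0.22, unadjusted p = 0.0214). It was at 9.71, 8.97, 9.04 and 8.83 in WT and at 8.84, 8.76, 8.40 and 8.14 in *Sucnr1*-/- mice, and WT replicate 1 stood well above the rest. *Prkcsh*, a subunit of the glucosidase that trims glycoproteins, was at -0.13 (SE 0.05, unadjusted p = 0.0367). *Uggt1*, which marks unfolded glycoproteins for another folding round, was at -0.11 (SE 0.05). For both genes the groups did not overlap, although the WT values of *Prkcsh* lay between 9.68 and 9.74 and its *Sucnr1*-/- values between 9.55 and 9.61.

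Of 15 measured disulfide isomerases and oxidases, which form and rearrange disulfide bonds, 12 had a lower mean and 3 a higher one (median -0.11). None passed at an adjusted p under 0.05 (limma), and 3 were lower unadjusted. *Ero1b*, an oxidase that recharges the isomerases, differed by -0.40 (SE 0.11, unadjusted p = 0.00699), with 7.39, 6.89, 7.38 and 7.26 in WT and 6.91, 6.76, 6.82 and 6.83 in *Sucnr1*-/- mice. Only WT replicate 2 lay within the *Sucnr1*-/- range. *Txndc11* was at -0.23 (SE 0.08, unadjusted p = 0.0179) and *Tmx1*, a membrane-bound isomerase, at -0.17 (SE 0.06, unadjusted p = 0.0236), both without overlap.

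*Derl3* had the largest difference of the 8 genes. It belongs to the derlins, membrane proteins that help to move misfolded proteins out of the ER for degradation. The log2 level of *Derl3* was 8.00, 7.64, 7.47 and 7.46 in WT and 7.45, 6.85, 7.08 and 6.90 in *Sucnr1*-/- replicates 1 to 4. The groups did not overlap, but *Sucnr1*-/- replicate 1 was only 0.014 below the lowest WT mouse. The means were 7.64 ± 0.25 (SD, n = 4) and 7.07 ± 0.27 (SD, n = 4), and the exact permutation test gave p = 0.0286. The difference was -0.57 (SE 0.16, 95% interval -0.94 to -0.21, limma unadjusted p = 0.00662, adjusted p = 0.712), so that the level in *Sucnr1*-/- mice was 67.3% of that in WT mice. Leaving out single mice moved it between -0.70 and -0.45.

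Of 22 other genes of ER-associated degradation measured, 15 had a lower and 7 a higher mean, the median was -0.03, and none passed either adjusted or at an unadjusted p under 0.05 (limma). Those of smallest unadjusted p were *Erlec1*, a lectin that recognises misfolded glycoproteins, at 0.18 (SE 0.09), *Herpud2* at 0.15 (SE 0.09) and *Ubxn4* at -0.12 (SE 0.08). The close relatives *Derl1* and *Derl2* were at 0.00 (SE 0.07) and 0.03 (SE 0.08), respectively, both named here after their values were seen. A test of *Derl3* against its relatives was not made.

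Of 27 measured genes of the translocon and of signal peptide processing, which bring new proteins into the ER, 20 had a lower and 7 a higher mean (median -0.07), 2 of them lower unadjusted. *Tram1* was at -0.15 (SE 0.06, unadjusted p = 0.022), *Spcs3*, a subunit of the signal peptidase, at -0.39 (SE 0.17, unadjusted p = 0.0485) and *Srpr*, the receptor of the signal recognition particle, at -0.16 (SE 0.07). Of 24 genes of vesicle coats and cargo receptors, 20 had a lower and 4 a higher mean (median -0.06), with none past an unadjusted p under 0.05 (limma). *Mcfd2* and *Lman1*, which together carry cargo out of the ER, were at -0.15 (SE 0.08) and -0.11 (SE 0.06), and *Gosr2*, a fusion protein of Golgi vesicles, at -0.11 (SE 0.06). Over all 7 role lists without the listed members, 128 of 137 genes were measured. Their median was -0.07, and 8 were lower (6.25%, against 3.36% of all genes) and 1 higher unadjusted. When arrays were set to a common median, 4 were lower and 4 higher and their median was -0.03, and leaving out single mice gave 4 (without *Sucnr1*-/- replicate 4) to 11 (without WT replicate 4) lower, with 5 each without WT replicate 2 and without *Sucnr1*-/- replicate 2.

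**Figure D2:**
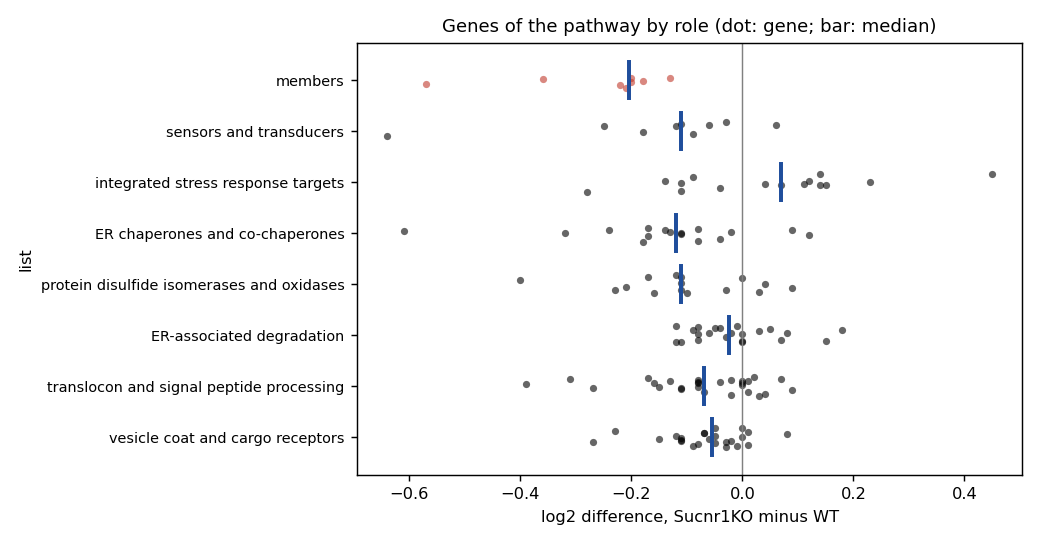
Log2 difference (*Sucnr1*-/- minus WT, horizontal axis) of every measured gene of the 8 lists (rows), the members in red and the other lists, without the members, in black, with the median of each list as a blue bar. The median is -0.21 for the members, between -0.12 and -0.03 for the lists of sensors, folding, degradation and transport, and 0.07 for the targets of the integrated stress response.

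**Figure D3:**
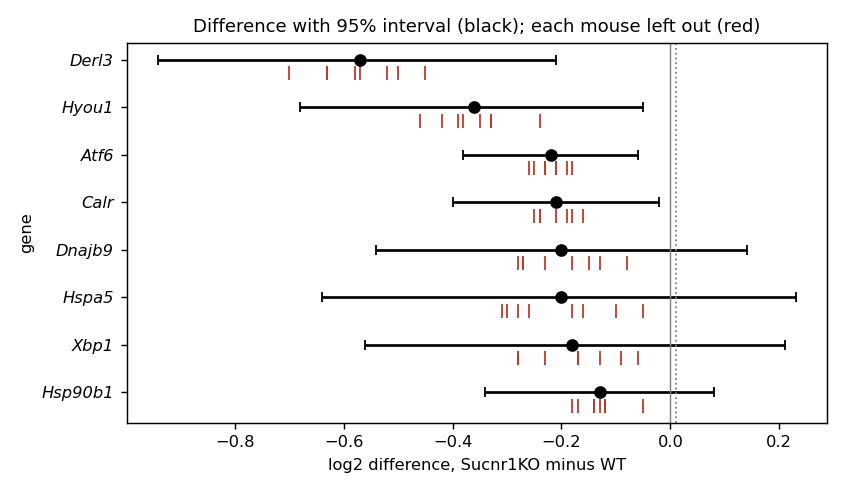
Log2 difference (horizontal axis) of the 8 measured genes (rows), as black points with the 95% interval from limma, and below each, in red, the values with each of the 8 mice left out in turn; the dotted line is the median of all genes, 0.01. The interval does not reach 0 for *Derl3*, *Hyou1*, *Atf6* and *Calr*, and every red mark lies below 0.

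Over the 8 mice, 5 of the 7 other measured genes were correlated with *Hspa5* past an adjusted p of 0.05 (Pearson's r, exact permutation), namely *Xbp1*, *Hsp90b1*, *Dnajb9*, *Calr* and *Hyou1*. The mean deviation of the 8 genes from their WT means was 0.26, 0.07, -0.18 and -0.15 in WT replicates 1 to 4 and -0.08, -0.22, -0.30 and -0.43 in *Sucnr1*-/- replicates 1 to 4. WT replicates 1 and 2 stood highest, and *Sucnr1*-/- replicate 1 lay above WT replicates 3 and 4. These 7 relations to *Hspa5* were the only ones examined, so the share of all genes that would pass in the same way is not known. The correlation is therefore not shown to be particular to these genes. Pearson's r was 0.94 for *Xbp1* (exact permutation p = 0.000397, adjusted p = 0.00278), with Spearman's rho 0.90 (exact permutation p = 0.00456, adjusted p = 0.0253). For *Hsp90b1* r was 0.89 (exact permutation p = 0.000918, adjusted p = 0.00321) and rho 0.79 (exact permutation p = 0.0279, adjusted p = 0.0652). *Dnajb9* had an r of 0.87 (exact permutation p = 0.00637, adjusted p = 0.00903) and a rho of 0.88 (exact permutation p = 0.00724, adjusted p = 0.0253). These 3 kept a high r without the 2 mice farthest from the median of *Hspa5*, WT replicate 1 and *Sucnr1*-/- replicate 4, at 0.84 for *Xbp1*, 0.83 for *Hsp90b1* and 0.91 for *Dnajb9*. Among the mice then left, *Hsp90b1* was at 11.95 in WT replicate 2 and only at 11.75 to 11.80 in the rest.

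*Calr* had an r of 0.87 (exact permutation p = 0.00645, adjusted p = 0.00903) and a rho of 0.62 (exact permutation p = 0.115, adjusted p = 0.161). *Hyou1* had an r of 0.86 (exact permutation p = 0.0063, adjusted p = 0.00903) and a rho of 0.71 (exact permutation p = 0.0576, adjusted p = 0.101). Without the 2 farthest mice their r was 0.53 and 0.62 and no longer passed (exact permutation p = 0.293 and 0.183). These relations are thus not shown without those mice, although fewer mice and a narrower range of *Hspa5* also make passing harder. For *Derl3* r was 0.71 (exact permutation p = 0.0458, adjusted p = 0.0534) with a rho of 0.50 (exact permutation p = 0.216, adjusted p = 0.252), and r was 0.16 without the same mice. *Atf6* had an r of 0.42 (exact permutation p = 0.298, adjusted p = 0.298) and a rho of 0.31 (exact permutation p = 0.462, adjusted p = 0.462). As a description, the r of deviations from the group means was 0.96 for *Calr*, 0.94 for *Xbp1*, 0.91 for *Hyou1*, 0.89 for *Hsp90b1*, 0.85 for *Dnajb9*, 0.75 for *Derl3* and 0.26 for *Atf6*. The 2 genes with the smallest unadjusted p for genotype, *Derl3* and *Atf6*, were thus those with the lowest r to *Hspa5*.

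**Figure D4:**
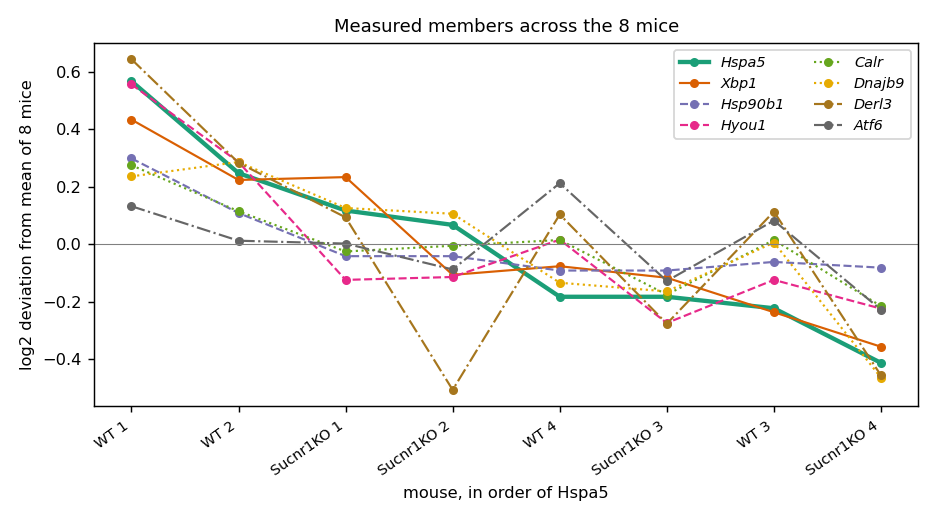
Deviation of each of the 8 measured genes from its own mean over the 8 mice (log2, vertical axis), with the mice in falling order of *Hspa5* (horizontal axis) and a line per gene. *Xbp1* and *Dnajb9* descend with *Hspa5*, *Hsp90b1* is raised in WT replicates 1 and 2 and nearly level in the others, and *Atf6* is highest in WT replicate 4.

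Markers of other cells and of handling moved with the same comparison, and their part in it was not tested. Of 14 measured markers of plasma and B cells 12 had a lower mean (median -0.46). Their mean log2 level was 6.59 to 8.37 in WT and 6.32 to 7.30 in *Sucnr1*-/- mice, and the table holds no 0. *Jchain*, the joining chain of secreted antibodies, was at 11.00 in WT replicate 1 and 10.44 in *Sucnr1*-/- replicate 1, against 7.49 to 8.48 in the other 6 mice. *Mzb1*, *Pou2af1* and *Prdm1* were also highest in these 2 mice, but not all of the markers had this pattern. *Sdc1* was lowest of all mice in *Sucnr1*-/- replicate 1, at 8.40. *Cd79a*, *Cd79b* and *Ms4a1* were at 8.59, 9.17 and 8.25 in WT replicate 3, above the 7.70, 8.58 and 8.05 of *Sucnr1*-/- replicate 1. The 2 with a higher mean in *Sucnr1*-/- mice were *Irf4* at 0.45 (SE 0.40) and *Tnfrsf17* at 0.18 (SE 0.17), both highest in *Sucnr1*-/- replicate 4. The mean deviation over the plasma and B cell markers was 1.11, -0.55, 0.12 and -0.68 in WT replicates 1 to 4. In *Sucnr1*-/- replicates 1 to 4 it was 0.04, -0.95, -0.83 and -0.29. Macrophage markers had a lower mean in 17 of 18 (median -0.35), with a mean level of 10.00 to 10.47 in WT and 9.70 to 10.04 in *Sucnr1*-/- mice. Unadjusted, 4 of the 18 were lower (22.2%, against 3.36% of all genes, limma) and 0 higher. The mean deviation of the macrophage markers was 0.28, -0.14, 0.05 and -0.18 in WT replicates 1 to 4. It was -0.14, -0.48, -0.37 and -0.43 in *Sucnr1*-/- replicates 1 to 4. Adipocyte markers had a higher mean in 14 of 15 (median 0.07). Immediate early genes, known to respond to handling of tissue, had a lower mean in 15 of 19 (median -0.24), at 8.25 to 9.30 in WT and 8.06 to 9.01 in *Sucnr1*-/- mice. At an unadjusted p under 0.05 (limma), 1 was lower and 1 higher. These were *Nr4a1* at -0.74 (SE 0.25) and *Jun* at 0.28 (SE 0.08). *Jun* was higher in each *Sucnr1*-/- mouse than in each WT mouse, as were 2.37% of all genes. The mean deviation of the immediate early genes was 0.61 in WT replicate 1 and 0.32 in *Sucnr1*-/- replicate 1, against -0.63 to -0.04 in the others. Without these 2 mice the differences were -0.58 for *Derl3*, -0.25 for *Atf6*, -0.26 for *Hyou1*, -0.18 for *Calr*, -0.12 for *Hspa5*, -0.06 for *Hsp90b1*, -0.17 for *Xbp1* and -0.23 for *Dnajb9*. *Hyou1* and *Calr* then no longer passed unadjusted (limma unadjusted p = 0.0592 and 0.0633, adjusted p = 0.654 and 0.666), which left *Derl3* and *Atf6*. Markers of epididymis, lymph node and muscle had a mean level of 5.37 to 5.56 in WT and 5.38 to 5.53 in *Sucnr1*-/- mice. This mean joins the muscle gene *Acta1*, at 9.74 to 11.11, to dim genes. The lymph node genes *Fcer2a* and *Cr2* were highest in WT replicate 1. *Fcer2a* was at 6.64 there against 4.46 to 5.17 in the other mice, and *Cr2* at 5.29 against 4.21 to 4.55.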

How the data were processed

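RNA of epididymal adipose tissue from 4 WT and 4 *Sucnr1*-/- mice was measured with 1 array each. The deposited table holds log2 expression that the authors made with RMA (version not given in the sources used here), which corrects background, normalizes arrays together and compresses low values. Each gene was represented by its brightest probe set among the 21218 with exactly 1 symbol (18820 genes, no filter on dim ones). The annotation leaves 1881 probe sets with several symbols and 12457 unnamed. By Entrez ID 21185 matched RefSeq. Genotypes were compared with limma 3.58.1 in R 4.3.3 (lmFit, eBayes), with p-values adjusted by Benjamini-Hochberg across the 18820 genes (threshold 0.05), single genes also by exact permutation, and the fit was tested on simulated data. Alternatives were another variance prior, the methods' t-test, a filter on dim genes, weighted arrays, a common median, equalised quantiles, a block for replicate number, averaged probe sets and single mice left out. Besides the members, up to 3 genes of each role list with the smallest unadjusted p were named. The members and lists, written by hand from textbook roles, were chosen with earlier results of these data known. Precision is limited by having 8 arrays, and the labels give no batch or scan date. Promoters came from RefSeq (GRCm38.p6), and no coordinates of probes were used. Figures were drawn with matplotlib 3.10.9.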

Additional observations from a re-analysis of the deposited data

How the results depend on the processing

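Each of the 8 measured members was recomputed under 17 alternatives, and all 136 differences were below 0 with none at an adjusted p under 0.05 (lowest 0.304). Over all genes none of the 17 gave a gene at an adjusted p under 0.05. With each array centred on its median, 2 members, 330 genes and 4 other pathway genes were lower and 1352 genes and 4 other pathway genes higher unadjusted, and the median of the other pathway genes was -0.03. Other pathway genes that were higher unadjusted numbered 2 after quantile normalization and 0 by the methods' t-test. After removal of the dimmest 40% of genes, which left 11292 to test, 535 genes were lower and 369 higher unadjusted. The median over these genes was -0.01. The replicate block gave 1096 lower genes and 14 lower other pathway genes, with 5 members lower unadjusted and none at an adjusted p under 0.05. Same-numbered mice deviated together with r of 0.45, 0.14, 0.11 and 0.01, and not every mouse correlated best with its own number, so the numbers were not taken as pairs. Leaving out WT replicate 1 and *Sucnr1*-/- replicate 1 together, chosen after seeing the data, left 2 lower members and 0 higher other pathway genes. Without single mice there were 2 to 4 lower members, 368 (without *Sucnr1*-/- replicate 2) to 885 (without *Sucnr1*-/- replicate 1) lower and 440 to 870 higher genes, and 4 to 11 lower and 0 to 2 higher other pathway genes. The median r with *Hspa5* was 0.87 and stayed positive with centred arrays and in deviations from group means. Where an alternative moved a count, the cause was not tested. Dim genes have no separate background signal here, and 4 mice per group limit what can be detected.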

Other observations

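The ERSE was in the promoters of 37 genes in all, of which 20 were measured on the arrays. Of these, 17 had a lower mean in *Sucnr1*-/- mice (85%), against 47% of the 14749 measured genes with a promoter in the table, and their median log2 difference was -0.10 against 0.01. Of the other pathway genes with a promoter in the table, 77 of 104 measured had a lower mean (74%), with a median of -0.06. Of the 20 measured genes with the ERSE none passed at an adjusted p under 0.05 (limma), while 3 were lower and 1 higher unadjusted. Unadjusted, 510 of the 14749 genes were lower and 496 higher, and of the 104 other pathway genes 5 were lower and 1 higher. Without the listed members 13 of 16 genes with the ERSE had a lower mean, with a median of -0.08, and 1 was lower and 1 higher unadjusted. All 6 that belong to the role lists of the pathway had a lower mean, namely *Ero1b* at -0.40 (SE 0.11), *Creld2* at -0.32 (SE 0.27), *Dnajc3* at -0.14 (SE 0.07), *Pdia6* at -0.10 (SE 0.11), *Canx* at -0.08 (SE 0.06) and *Syvn1* at -0.03 (SE 0.08). The higher one, *Pan2*, which shortens the tails of mRNA and is named after its value was seen, was at 0.16 (SE 0.07). This set was formed after the values were known and overlaps the lists above, so no test was made of it.

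Cytosolic heat shock genes, chaperones outside the ER, had a lower mean in 9 of 12 measured (median -0.13), with none past an unadjusted p under 0.05 (limma). In *Sucnr1*-/- replicate 1 their mean deviation from the WT means was 0.26, where that of the ER chaperones was -0.09. Not every gene was high there, as *Hspa4l* was lowest in that mouse (8.34) and *Hspa4*, at 10.56, lay within the WT range. *Dnajb1*, a partner of cytosolic Hsp70, was at 10.46 there and at 8.67 to 9.07 in the other *Sucnr1*-/- mice, with 9.74, 9.17, 8.87 and 9.11 in WT replicates 1 to 4. *Hsph1*, an exchange factor of cytosolic Hsp70, was at 10.18 in the same mouse and at 8.40 to 8.81 in the other *Sucnr1*-/- mice. For *Hspa5* that mouse, at 11.88, lay close to *Sucnr1*-/- replicate 2 at 11.83. This difference between mice was not tested.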
